A study of Homo sapiens with 12 samples.

Results

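Polyamine metabolism was followed through 10 genes, ODC1, AMD1, SRM, SMS, SAT1, SAT2, SMOX, PAOX, OAZ1 and AZIN1, which were taken by name from a table of RNA-seq read counts with 32077 genes. All 10 genes were in the table and had counts in every library. PC3 and DU145 are established human prostate cancer cell lines, both labelled wild type. Each line was cultured for 48 hours with 2.5 μmol/L pentamidine, an aromatic diamidine used against protozoan and fungal infections, or with vehicle (sterile distilled water). The 4 groups held 3 samples apiece, which gave 12 libraries. Each line stands for itself alone. The labels do not say whether the 3 samples of a group came from separate cultures, and the study's general mention of independent experiments is not tied to these libraries, so the p-values measure only the spread between these samples, which may be technical.

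Polyamines (putrescine, spermidine and spermine) are small positively charged molecules that bind nucleic acids and that dividing cells need. Ornithine decarboxylase makes putrescine from ornithine, and spermidine synthase and spermine synthase then add aminopropyl groups taken from decarboxylated S-adenosylmethionine. Breakdown runs back along the same chain through acetylation and oxidation, and antizymes and antizyme inhibitors set how long ornithine decarboxylase lasts. The prostate is known for making and secreting large amounts of polyamines. Pentamidine itself is a diamidine that has been described as acting on polyamine enzymes and transport, which is the question these genes address at the level of mRNA. Protein, enzyme activity and polyamine content were not measured by this assay.

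Library totals lay between 13514195 and 15131436 counts, so depth differed little between samples. The share of counts from mitochondria-encoded genes was 3.79% to 4.66% in vehicle-treated and 1.97% to 2.76% in pentamidine-treated libraries, and leaving these genes out of the normalization changed no call for any of the 10 genes. Of the epithelial markers, KRT8 lay at 16.1 to 21.4 CPM (counts relative to the library total, scaled by the trimmed mean of M-values, TMM) in PC3 and 1814 to 2791 CPM in DU145 libraries, KRT18 lay at 144 CPM or more in all 12, and EPCAM had 0 to 2 counts in all 12. The lines are named as labelled. The prostate secretory genes KLK2 and KLK3 had at most 3 counts, the leukocyte gene PTPRC and the hepatocyte gene ALB at most 1, the endothelial gene PECAM1 at most 10, and the fibroblast gene COL1A1 at most 2.98 CPM. In bulk RNA, fewer cells and less RNA per cell cannot be told apart, and every level is relative to the other RNA of its library.

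All 10 genes are protein coding and have the same position in the table and in GENCODE 29 (GRCh38). ODC1 (ENSG00000115758) lies on chr2:10439968-10448504 on the minus strand, AMD1 (ENSG00000123505) on chr6:110874770-110895713 on the plus strand, and SRM (ENSG00000116649) on chr1:11054584-11060024 on the minus strand. The X chromosome holds both SMS (ENSG00000102172, chrX:21940573-21994835) and SAT1 (ENSG00000130066, chrX:23783173-23786226), each on the plus strand. SAT2 (ENSG00000141504) lies on chr17:7626234-7627876 on the minus strand, SMOX (ENSG00000088826) on chr20:4120980-4187747 and PAOX (ENSG00000148832) on chr10:133379234-133391694, both on the plus strand. OAZ1 (ENSG00000104904) lies on chr19:2269509-2273490 on the plus strand and AZIN1 is ENSG00000155096. Overlapping genes had few reads that could be confused with these: AL360181.3 at PAOX had 0 to 1 counts, AZIN1-AS1 at AZIN1 had 5 to 12 and JSRP1 at OAZ1 had 0 to 5. The pseudogenes in the table, ODCP, AMD1P3 and SRMP2, had at most 8, 3 and 1 counts. AC005258.1 at OAZ1 and the pseudogenes AMD1P1, AMD1P2, AMD1P4 and SRMP1 were not analysed here, and reads shared with them could be split in ways the counts do not show.

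The regulatory sequence of 3 members is shown because their mRNAs moved differently: SRM fell in both lines, SAT2 rose in both lines and SAT1 moved in opposite directions. The 250 bases before each transcription start (RefSeq, GRCh38.p14, read 5′ to 3′ on the gene's strand) cover chr1:11060019-11060268 for SRM, chrX:23782923-23783172 for SAT1 and chr17:7627877-7628126 for SAT2. Capitals mark the MYC and MAX E-box CACGTG in SRM and a match to the antioxidant response element TGACNNNGC, on the opposite strand, in SAT2. SAT1 has none of the motifs searched and so has no capitals.
SRM: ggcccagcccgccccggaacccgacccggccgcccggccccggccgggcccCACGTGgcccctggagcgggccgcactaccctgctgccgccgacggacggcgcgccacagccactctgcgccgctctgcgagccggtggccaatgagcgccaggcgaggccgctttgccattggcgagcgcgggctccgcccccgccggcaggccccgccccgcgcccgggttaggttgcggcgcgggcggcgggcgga
SAT1: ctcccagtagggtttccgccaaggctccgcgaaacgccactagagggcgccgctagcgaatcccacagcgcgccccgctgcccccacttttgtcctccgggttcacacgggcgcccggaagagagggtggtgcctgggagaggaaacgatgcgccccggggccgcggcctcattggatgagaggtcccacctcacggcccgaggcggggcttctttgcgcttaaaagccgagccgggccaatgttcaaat
SAT2: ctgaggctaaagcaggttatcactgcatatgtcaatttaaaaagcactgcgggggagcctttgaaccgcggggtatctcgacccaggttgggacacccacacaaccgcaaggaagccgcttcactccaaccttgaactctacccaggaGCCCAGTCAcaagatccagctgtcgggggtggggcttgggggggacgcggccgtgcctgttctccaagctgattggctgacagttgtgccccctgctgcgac

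RefSeq gave a promoter window for 7 of the 10 genes, and SMOX, PAOX and AZIN1 had none. In these windows of 300 bases, read on both strands, CACGTG was in 1 member (SRM, starting 199 bases before the start site) against 7.26% of 35116 promoters. TGACNNNGC was in 2 members against 13.3% of promoters, starting 102 bases before the start site in SAT2 and 5 bases before it in ODC1, where the match reads GCTTTGTCA. The ATF4 and CEBP composite element TGATGNAA (3.62% of promoters) and the cyclic AMP response element TGACGTCA (1.85%) were in 0 members. The window of AMD1, which fell in both lines as SRM did, held none of these motifs and is not shown. These letters are a description of the windows and not of bound factors. AMD1 mRNA also carries a short upstream reading frame known for making its translation sensitive to polyamines, which a measurement of mRNA level does not see. It is shown in capitals, from its start to its stop codon, as it stands at bases 27 to 47 of a GENCODE 29 transcript whose main coding start is at base 337.
AMD1 upstream reading frame: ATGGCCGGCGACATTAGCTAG

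Levels between genes were compared only as CPM per kilobase of exon. The synthesis enzymes ODC1 and SRM stood highest in all 4 groups and PAOX, the peroxisomal polyamine oxidase, lowest. In vehicle-treated PC3 cells SRM averaged 109 ± 5.99 and ODC1 98.4 ± 5.13 (mean ± SD, n = 3), and the ranges of these neighbours overlapped. They were followed by OAZ1 at 68.4, SMS at 55.8, SAT1 at 36.0, AZIN1 at 27.8, AMD1 at 20.3, SMOX at 11.9, SAT2 at 6.99 and PAOX at 1.22, with no overlap between any of these neighbours. In vehicle-treated DU145 cells the order was ODC1 (115 ± 4.13), SRM (114 ± 2.59), SMS (71.5), OAZ1 (54.2), SMOX (50.7), AZIN1 (36.7), SAT1 (23.6), AMD1 (22.2), SAT2 (8.27) and PAOX (1.06). Here ODC1 and SRM, OAZ1 and SMOX, and SAT1 and AMD1 overlapped. The same order per kilobase thus put SMOX, the oxidase that turns spermine into spermidine, at rank 8 in PC3 and rank 5 in DU145 cells.

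Upon pentamidine treatment SAT1 reached 63.3 ± 2.78 CPM per kilobase in PC3 cells, where it overlapped with OAZ1 at 69.6 ± 5.20. SMOX reached 34.5 ± 1.92 in PC3 and stood above AZIN1 at 28.9. In pentamidine-treated DU145 cells SMOX stood at 65.4 ± 2.08, behind only ODC1 at 116 and SRM at 106, and SAT1 at 17.6 overlapped with AMD1 at 18.1. The plot of levels per exon length shows these orders on one axis.

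**Figure D1:**
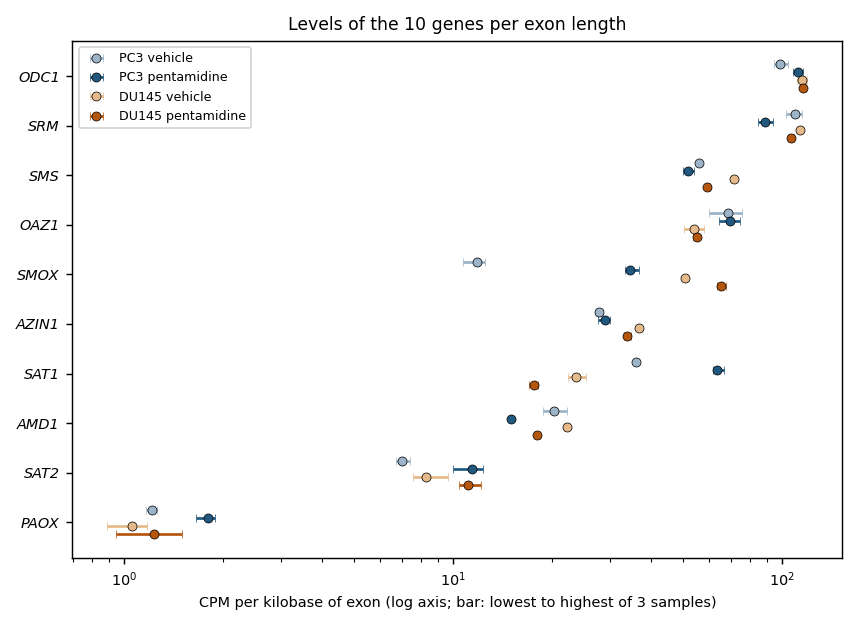
Level of each of the 10 genes in CPM per kilobase of exon (log axis), as the mean of 3 samples in each of the 4 groups, with bars from the lowest to the highest sample. ODC1 and SRM lie near 100 in every group and PAOX between 1.06 and 1.80, while SMOX moves from 11.9 in vehicle-treated PC3 cells to 65.4 in pentamidine-treated DU145 cells.

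The first question was which of these mRNAs changed with pentamidine in each line. In PC3 cells 7 of the 10 genes passed the test (edgeR quasi-likelihood, adjusted p below 0.05 over all genes tested), where 43.4% of 13861 genes passed. ODC1, SAT1, SAT2, SMOX and PAOX rose and AMD1 and SRM fell, so that 5 of 10 were higher and 2 of 10 lower where 21.7% of all genes were higher and 21.7% lower. The 4 genes grouped as breakdown enzymes all rose in PC3 cells, PAOX with a call that some alternatives lost. Of the synthesis enzymes 1 rose and 2 fell. SMOX was the only member past an absolute log2 fold change of 1, a limit that 4.75% of all genes passed. The 6 samples separated without overlap for 8 of 10 members and for 52.1% of all genes. The members' median log2 fold change was 0.13, beside 0.0046 over all genes, and their median absolute change was 0.36 beside 0.24.

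In DU145 cells 7 of the 10 genes passed as well, where 34.0% of 14313 genes passed. SAT2 and SMOX rose and AMD1, SRM, SMS, SAT1 and AZIN1 fell, which is 2 of 10 higher and 5 of 10 lower where 17.2% and 16.8% of all genes were higher and lower. No member passed an absolute log2 fold change of 1, which 2.03% of all genes did. Vehicle and pentamidine samples did not overlap for 7 of 10 members and for 44.0% of all genes. The median log2 fold change of the members was -0.037 (0.0085 over all genes), and the median absolute change was 0.24 (0.16 over all genes). These counts describe 10 genes and no test was made of the list. SAT2 and SMOX passed as higher and AMD1 and SRM as lower in both lines, and SAT1 passed in both with opposite signs.

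**Figure D2:**
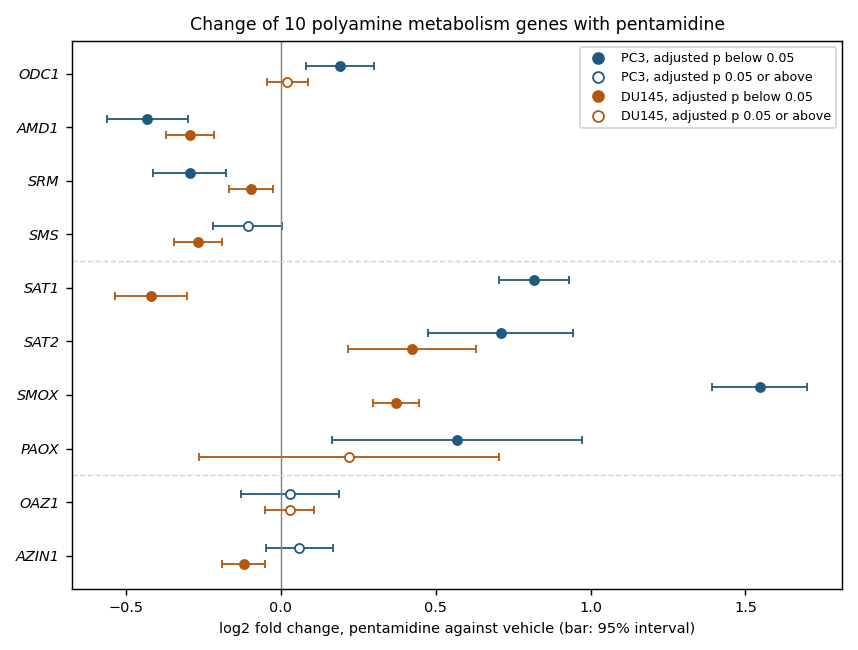
Log2 fold change of each gene upon pentamidine treatment in PC3 (blue) and DU145 (orange) cells with its 95% interval, where filled points passed the test (adjusted p below 0.05) and dashed lines part synthesis, breakdown and regulators. SMOX in PC3 lies farthest right at 1.55, and the SAT1 points lie on opposite sides of 0, at 0.82 in PC3 and -0.42 in DU145.

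Synthesis begins with ODC1, ornithine decarboxylase, the first and usually rate-limiting enzyme of the pathway. In PC3 cells ODC1 lay at 285, 281 and 309 CPM in vehicle replicates 1, 2 and 3 and at 319, 344 and 333 CPM with pentamidine. All 3 treated samples were above all 3 vehicle samples, by a small margin. ODC1 rose 1.14-fold (log2 fold change 0.19, SE 0.053, edgeR adjusted p = 0.0071), and without pentamidine replicate 2 the adjusted p was 0.052. In DU145 cells the values were 338, 354 and 330 CPM with vehicle and 343, 350 and 341 CPM with pentamidine. These groups overlapped, and the log2 difference was 0.021 with a 95% interval from -0.045 to 0.087 (edgeR adjusted p = 0.66).

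AMD1, adenosylmethionine decarboxylase, supplies the aminopropyl groups for spermidine and spermine. In PC3 cells its level was 140, 156 and 132 CPM with vehicle and 105, 106 and 106 CPM with pentamidine. In DU145 cells it was 156, 153 and 158 CPM with vehicle and 129, 125 and 126 CPM with pentamidine. The treated samples were below the vehicle samples in both lines, and the vehicle-treated PC3 samples were the more spread. AMD1 fell, with a log2 fold change of -0.43 (SE 0.061, edgeR adjusted p = 2.3e-05) in PC3 and -0.29 (SE 0.038, adjusted p = 1.4e-08) in DU145.

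SRM, spermidine synthase, adds the first aminopropyl group. Its level in PC3 cells was 209, 196 and 218 CPM with vehicle and 178, 169 and 160 CPM with pentamidine, with no overlap. In DU145 cells it was 210, 220 and 217 CPM with vehicle and 207, 199 and 199 CPM with pentamidine, so that the groups were parted by only a few CPM. SRM fell by 0.29 on the log2 scale in PC3 (SE 0.056, edgeR adjusted p = 4.2e-04) and by 0.096 in DU145 (SE 0.035, adjusted p = 0.031). The call in DU145 was lost on leaving out vehicle replicate 2 (adjusted p = 0.11) or 3 (0.089) or pentamidine replicate 2 (0.10) or 3 (0.082), in the fit of all 12 samples (0.12) and with scaling by library size alone (0.34).

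SMS, spermine synthase, adds the second aminopropyl group. In PC3 cells SMS lay at 120.1, 120.5 and 121.1 CPM with vehicle and at 108, 117 and 110 CPM with pentamidine. Every treated sample was below every vehicle sample, but the log2 fold change of -0.11 (95% interval -0.22 to 0.0049) did not pass (edgeR adjusted p = 0.11, and 0.042 with all 12 samples in 1 fit). In DU145 cells the levels were 152, 157 and 155 CPM with vehicle and 130, 126 and 128 CPM with pentamidine. SMS fell in DU145 cells, by 0.27 on the log2 scale (SE 0.038, edgeR adjusted p = 1.3e-07).

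**Figure D3:**
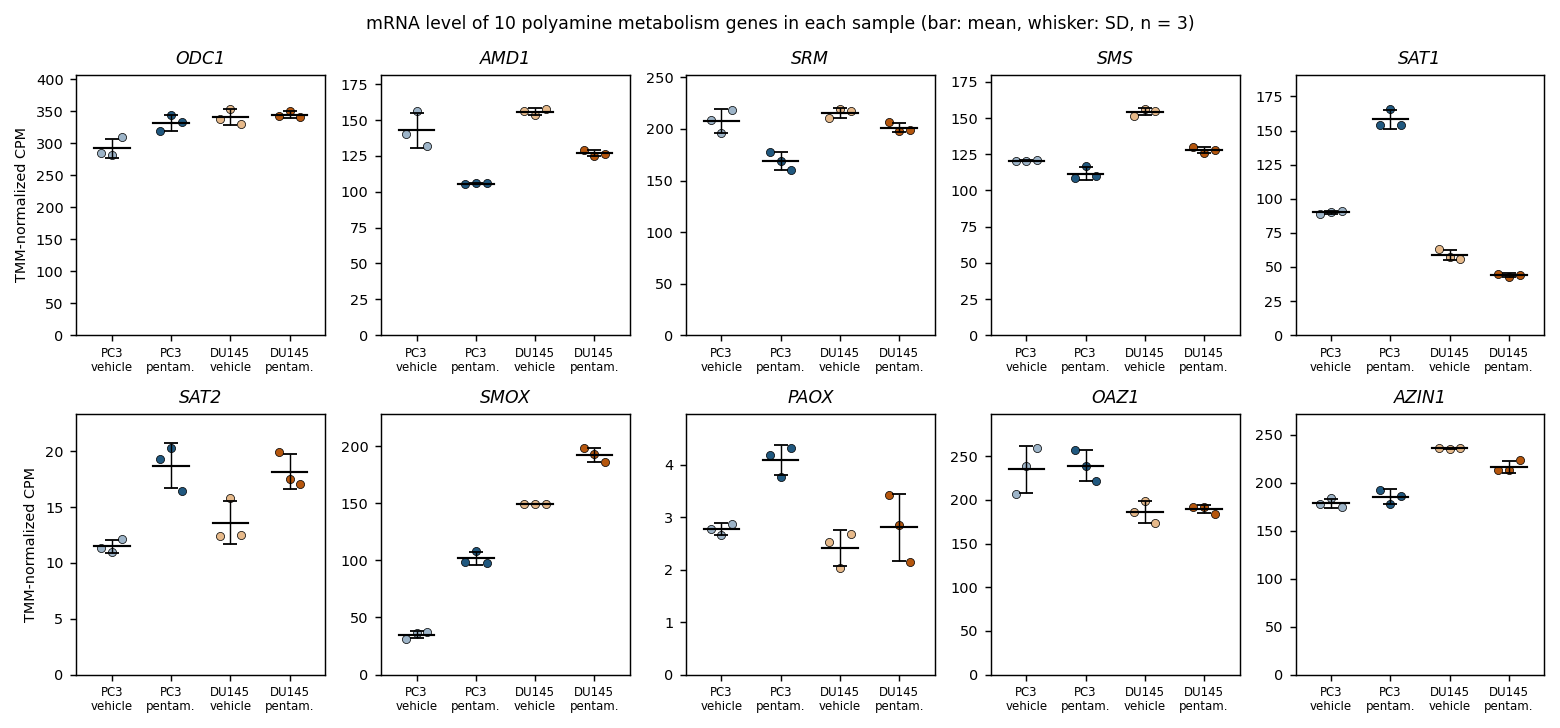
Level of each of the 10 genes in TMM-normalized CPM (linear axes from 0, each gene on its own scale) in all 12 samples, with the mean (bar) and SD (whisker) of the 3 samples of each group. SMOX and SAT1 show wide gaps between vehicle and pentamidine in PC3, and the OAZ1 groups overlap within each line.

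The largest fold changes of the 10 genes were those of SMOX, SAT1, SAT2 and PAOX in PC3 cells and of SAT2, SAT1 (a fall) and SMOX in DU145 cells. All of them are grouped here as breakdown enzymes. SAT1, spermidine/spermine N1-acetyltransferase, acetylates spermidine and spermine for export or oxidation, and is the enzyme that responds to polyamine excess and to many stresses. In PC3 cells its level was 88.5, 90.3 and 91.2 CPM with vehicle and 154, 166 and 154 CPM with pentamidine. In DU145 cells it was 63.3, 57.4 and 56.0 CPM with vehicle and 45.1, 42.4 and 44.3 CPM with pentamidine. The groups did not overlap in either line, and the treated samples were the higher in PC3 and the lower in DU145. SAT1 rose 1.76-fold in PC3 (log2 fold change 0.82, SE 0.054, edgeR adjusted p = 2.2e-09) and fell by 25.1% in DU145 (log2 fold change -0.42, SE 0.058, adjusted p = 5.6e-08).

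SAT2 is a related acetyltransferase, for which thialysine has been described as a better substrate than polyamines. Its level in PC3 cells was 11.3, 11 and 12.2 CPM with vehicle and 19.4, 20.3 and 16.5 CPM with pentamidine. In DU145 cells SAT2 lay at 12.4, 15.8 and 12.5 CPM with vehicle and at 19.99, 17.50 and 17.08 CPM with pentamidine. Treated samples were above vehicle samples in both lines, and vehicle replicate 2 of DU145 came closest to them. SAT2 rose 1.64-fold in PC3 (log2 fold change 0.71, SE 0.11, edgeR adjusted p = 6.1e-05) and 1.34-fold in DU145 (0.42, SE 0.10, adjusted p = 9.3e-04). Unlike SAT1, its relative, SAT2 thus had the same sign in both lines.

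SMOX, spermine oxidase, turns spermine directly into spermidine and releases hydrogen peroxide and an aldehyde. In PC3 cells SMOX rose from 31.6, 36.4 and 36.8 CPM to 98.75, 108.2 and 98.03 CPM. In DU145 cells it rose from 149.4, 149.2 and 149.2 CPM to 199, 193 and 186 CPM. The treated PC3 samples were still below the vehicle-treated DU145 samples. SMOX rose 2.92-fold in PC3 (log2 fold change 1.55, 95% interval 1.39 to 1.70, edgeR adjusted p = 2.1e-11) and 1.30-fold in DU145 (0.37, 95% interval 0.30 to 0.45, adjusted p = 5.2e-12).

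PAOX oxidizes the acetylated polyamines that SAT1 makes and was the member with the fewest reads, 29 to 64 counts per library. In PC3 cells its level was 2.78, 2.65 and 2.87 CPM with vehicle and 4.18, 3.77 and 4.32 CPM with pentamidine, without overlap. PAOX rose 1.48-fold (log2 fold change 0.57, SE 0.19, edgeR adjusted p = 0.023), but the call was lost with DESeq2 (adjusted p = 0.078) and on leaving out vehicle replicate 2 (0.068) or pentamidine replicate 1 (0.067) or 3 (0.074). In DU145 cells it was 2.53, 2.03 and 2.68 CPM with vehicle and 3.43, 2.85 and 2.15 CPM with pentamidine. These overlapped, and at this depth the 95% interval of the log2 difference ran from -0.26 to 0.70 (edgeR adjusted p = 0.52).

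Of the regulators of ornithine decarboxylase, neither passed the test in PC3 cells and AZIN1 passed in DU145 cells. OAZ1, antizyme, binds ornithine decarboxylase and delivers it to the proteasome, and its protein is made only when ribosomes shift frame on the message, a step that counts of mRNA do not measure. In PC3 cells OAZ1 lay at 206, 239 and 260 CPM with vehicle and at 257, 239 and 221 CPM with pentamidine. In DU145 cells it lay at 186, 199 and 173 CPM with vehicle and at 192, 192 and 184 CPM with pentamidine. The groups overlapped in both lines. Its log2 difference was 0.030 (95% interval -0.13 to 0.19, edgeR adjusted p = 0.77) in PC3 and 0.029 (-0.051 to 0.11, adjusted p = 0.62) in DU145, and leaving out single samples turned the sign in both.

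AZIN1, antizyme inhibitor, resembles ornithine decarboxylase without its activity and binds antizyme in its place. In PC3 cells AZIN1 lay at 178, 184 and 174 CPM with vehicle and at 193, 177 and 187 CPM with pentamidine, with overlap (log2 difference 0.059, 95% interval -0.048 to 0.17, edgeR adjusted p = 0.37). In DU145 cells AZIN1 lay at 236, 235 and 236 CPM with vehicle and at 213, 213 and 223 CPM with pentamidine. The treated samples were lower, and AZIN1 fell by 7.91% (log2 fold change -0.12, SE 0.035, edgeR adjusted p = 0.0056). With scaling by library size alone this call was lost (adjusted p = 0.12).

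The second question was whether the change differed between the lines, which was tested as the difference of the log2 fold changes (PC3 minus DU145) in 1 fit of all 12 samples. SAT1 and SMOX differed by far the most among the members, both higher in PC3. The difference was 1.24 for SAT1 (SE 0.077, 95% interval 1.08 to 1.39, edgeR adjusted p = 2.1e-12) and 1.17 for SMOX (SE 0.077, 1.02 to 1.33, adjusted p = 5.7e-12). Both calls held in all 20 alternatives run, with differences between 1.17 and 1.28 for SAT1 and between 1.11 and 1.22 for SMOX. In all, 5 of 10 members passed this test, 4 higher and 1 lower, where 20.4% of 15226 genes passed (10.2% higher, 10.3% lower), and 2 members passed an absolute difference of 1, as did 2.62% of all genes.

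The other 3 that passed had small differences close to the threshold: ODC1 at 0.17 (edgeR adjusted p = 0.0495), AZIN1 at 0.18 (adjusted p = 0.033) and SRM at -0.20 (adjusted p = 0.032). ODC1 and SRM each kept this call in 9 of 20 alternatives and AZIN1 in 12 of 20. The count of 5 became 2 without PC3 pentamidine replicate 3 or DU145 pentamidine replicate 1. It became 3 without PC3 pentamidine replicate 2, DU145 pentamidine replicate 2 or 3, or any of the DU145 vehicle samples. For AMD1 (-0.14, 95% interval -0.28 to 0.0073), SMS (0.16, 0.032 to 0.29), SAT2 (0.29, -0.035 to 0.61), PAOX (0.35, -0.26 to 0.96) and OAZ1 (0.0020, -0.18 to 0.19) the difference between the lines did not pass, with edgeR adjusted p from 0.070 for SMS to 1.00 for OAZ1. AMD1 passed without PC3 vehicle replicate 3 (adjusted p = 0.046) and with library size alone (0.042), and SMS with RLE normalization (0.047) and with a stricter filter on low counts (0.044). A call in only 1 line, as for SMS and PAOX, is therefore not by itself a difference between the lines. ODC1 and AZIN1 were also called in only 1 line, and their differences passed close to the threshold.

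The third question was how the lines differed without the drug. Among vehicle-treated cells 7 of 10 members passed the test, where 66.4% of 15226 genes passed. SAT1 and OAZ1 were higher in PC3 and ODC1, AMD1, SMS, SMOX and AZIN1 were lower, so 2 of 10 were higher and 5 of 10 lower where 33.2% of all genes were higher and 33.2% lower. The samples of the lines did not overlap for 7 of 10 members and 67.9% of all genes. SMOX was 4.28-fold lower in PC3 than in DU145 (log2 difference -2.10, SE 0.057, edgeR adjusted p = 1.2e-21) and the only member past an absolute log2 difference of 1, which 20.6% of all genes passed. SAT1 was 1.53-fold higher in PC3 (log2 difference 0.61, adjusted p = 1.4e-10) and OAZ1 1.26-fold higher (0.33, adjusted p = 4.6e-05). SMS (-0.36, adjusted p = 4.9e-08), AZIN1 (-0.40, adjusted p = 3.7e-09) and ODC1 (-0.22, adjusted p = 5.9e-05) were lower in PC3.

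AMD1 differed by -0.12 (edgeR adjusted p = 0.029), a call that was lost with library size alone (adjusted p = 0.24) and on leaving out PC3 vehicle replicate 1 (0.063) or 3 (0.21) or DU145 vehicle replicate 1 (0.057) or 3 (0.081). For SRM the log2 difference was -0.056 (95% interval -0.15 to 0.039) and for PAOX 0.19 (-0.25 to 0.64). For SAT2 it was -0.25 (-0.48 to -0.0065, edgeR adjusted p = 0.066), which passed without DU145 vehicle replicate 1 (0.042) or 3 (0.044), with RLE normalization (0.046) and with a stricter filter on low counts (0.039). The comparison of the drug with vehicle and the comparison of the lines share the vehicle samples, so they are set side by side and not correlated: SMOX was the lower in PC3 before treatment and had the larger fold change there.

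Ratios within a library, of counts per exon length, do not depend on how libraries are scaled. SAT1 to ODC1, an acetyltransferase of breakdown against the first enzyme of synthesis, went from 0.367 ± 0.0156 to 0.565 ± 0.0126 in PC3 and from 0.206 ± 0.0156 to 0.152 ± 0.00683 in DU145 cells (mean ± SD, n = 3). SMOX to SMS, the enzymes that take spermine apart and make it, went from 0.212 ± 0.0170 to 0.668 ± 0.0124 in PC3 and from 0.709 ± 0.0130 to 1.10 ± 0.0322 in DU145. In each of these 4 cases the vehicle and pentamidine samples did not overlap. SMOX exceeded SMS per exon length only in the 3 pentamidine-treated DU145 samples.

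AMD1 to ODC1 went from 0.208 ± 0.0270 to 0.135 ± 0.00480 in PC3 and from 0.193 ± 0.00977 to 0.155 ± 0.00444 in DU145, without overlap in either line. AZIN1 to OAZ1 went from 0.411 ± 0.0514 to 0.417 ± 0.0301 in PC3 and from 0.679 ± 0.0496 to 0.612 ± 0.0328 in DU145, with overlap in both. A ratio alone does not say which of its genes moved.

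**Figure D4:**
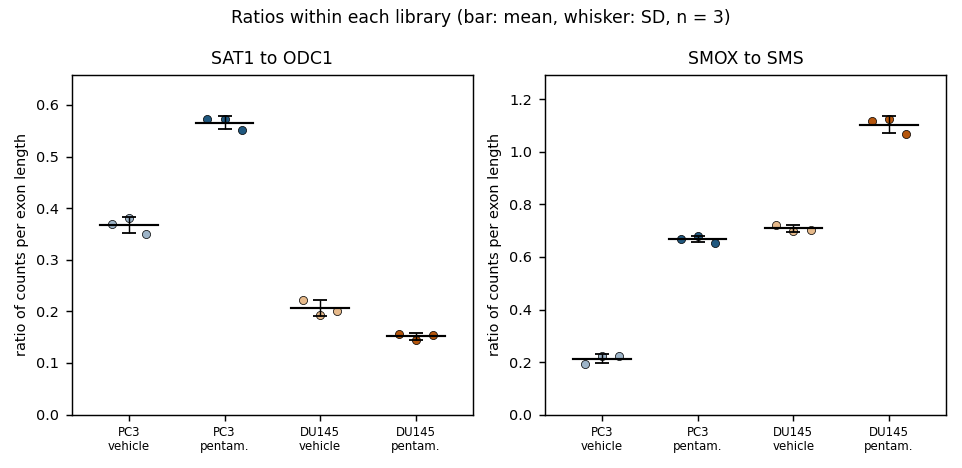
Ratio of SAT1 to ODC1 (left) and of SMOX to SMS (right) in each of the 12 libraries, from counts per exon length on linear axes from 0, with the mean (bar) and SD (whisker) of 3 samples. SAT1 to ODC1 rises in PC3 and falls in DU145, whereas SMOX to SMS rises in both, to 0.668 in PC3 and 1.10 in DU145.

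Around these 10 enzymes, 38 other genes of polyamine supply, transport, methionine salvage and use were listed, and all 38 were in the table. In PC3 cells 27 of them had enough counts to be tested and 14 passed, 7 higher and 7 lower (51.9%, against 43.4% of all genes), and the median of their log2 fold changes was -0.0018. In DU145 cells 28 were tested and 16 passed, 8 higher and 8 lower (57.1%, against 34.0% of all genes), with a median of 0.025, a count that was 8 with DESeq2 and 10 without vehicle replicate 2, pentamidine replicate 2 or pentamidine replicate 3. As many were called higher as lower in both lines. For the difference between the lines 29 were tested and 8 passed (27.6%, against 20.4% of all genes). Of these, 4 were higher in PC3 (SLC3A2, SLC7A1, ATP13A2 and SLC18B1) and 4 lower (MTR, MRI1, CAV1 and MAT2A). This count was not followed in the alternatives. The genes that passed in both lines were AHCY, GPC1, SLC3A2 and SLC7A1 (higher in both), ALDH18A1, CAV1, MTAP and OAT (lower in both) and MRI1 (opposite).

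Among the transport genes, SLC3A2 and SLC7A1 rose in both lines. SLC3A2, the heavy chain of amino acid transporters that has also been described in polyamine export, lay at 195, 210 and 224 CPM in vehicle-treated and 648, 664 and 634 CPM in pentamidine-treated PC3 cells. In DU145 cells SLC3A2 lay at 199, 193 and 191 CPM with vehicle and at 355, 341 and 345 CPM with pentamidine. The vehicle samples of the lines overlapped and the pentamidine samples did not. Between the vehicle-treated lines SLC3A2 was nonetheless called slightly higher in PC3 (log2 difference 0.11, edgeR adjusted p = 0.038), a call not followed in the alternatives. The log2 fold change of SLC3A2 was 1.64 in PC3 (SE 0.056, edgeR adjusted p = 2.7e-13) and 0.84 in DU145 (SE 0.034, adjusted p = 1.4e-27), and the difference of 0.79 passed (adjusted p = 2.4e-10). SLC7A1, a carrier of arginine, lysine and ornithine, rose by 0.99 on the log2 scale in PC3 (218 ± 14.99 to 432 ± 17.7 CPM, adjusted p = 1.6e-10) and 0.54 in DU145 (207 ± 5.15 to 300 ± 5.95 CPM, adjusted p = 4.3e-19), and this difference passed too (0.45, adjusted p = 6.6e-06). ATP13A3, a polyamine transporter of the P5B ATPase family, fell by 0.29 on the log2 scale in DU145 (adjusted p = 1.3e-09), and its log2 fold change in PC3 was -0.13 (adjusted p = 0.077, but 0.013 without vehicle replicate 3, 0.048 without pentamidine replicate 3 and 0.024 with all 12 samples in 1 fit). ATP13A2, of the same family and picked out after its values were seen, rose by 0.27 in PC3 (edgeR adjusted p = 7.2e-04). In DU145 cells ATP13A2 differed by -0.065 (adjusted p = 0.27). The difference between the lines was 0.34 for ATP13A2 (adjusted p = 9.7e-04), and it was not followed in the alternatives.

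Among direct partners of the members, AZIN2, the second antizyme inhibitor, rose in PC3 cells from 4.74, 3.49 and 3.98 CPM to 10.2, 7.18 and 9.18 CPM (log2 fold change 1.13, SE 0.17, edgeR adjusted p = 5.0e-05). In DU145 cells AZIN2 lay at 1.27, 1.82 and 1.44 CPM with vehicle and at 2.21, 1.76 and 3.13 CPM with pentamidine (0.65, adjusted p = 0.076, and 0.041 without pentamidine replicate 2), and the difference between the lines did not pass (0.48, adjusted p = 0.35). OAZ2, a further antizyme, fell by 0.18 in DU145 (adjusted p = 0.0030, and 0.052 without pentamidine replicate 3) and differed by -0.059 in PC3 (adjusted p = 0.54). EIF5A, the translation factor that carries hypusine made from spermidine, differed by -0.017 in PC3 (adjusted p = 0.87) and 0.015 in DU145 (adjusted p = 0.75). DHPS, which starts hypusine formation, differed by 0.069 in PC3 (adjusted p = 0.49) and 0.14 in DU145 (adjusted p = 0.025, lost in 7 of 15 alternatives, with 0.066 and 0.12 without pentamidine replicates 1 and 2 and 0.057 and 0.098 without vehicle replicates 1 and 3).

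MTAP, which recycles the methylthioadenosine left over by SRM and SMS, fell by 0.34 on the log2 scale in PC3 (edgeR adjusted p = 0.0020) and by 0.15 in DU145 (adjusted p = 0.048, a call kept in 7 of 15 alternatives, with 0.082 and 0.17 without vehicle replicates 1 and 2 and 0.093 and 0.22 without pentamidine replicates 2 and 3). MAT2A, which makes the S-adenosylmethionine that AMD1 uses, differed by -0.085 in PC3 (adjusted p = 0.16) and 0.069 in DU145 (adjusted p = 0.076, and 0.0017 with library size alone), and the difference between the lines was -0.15 (adjusted p = 0.038, a call kept in 6 of 20 alternatives and lost without any of 10 of the 12 samples). ARG2, an arginase that makes ornithine, differed by 0.12 in PC3 (adjusted p = 0.64). In DU145 cells ARG2 had 8 to 10 counts with vehicle and 11 to 27 with pentamidine (log2 fold change 0.99, adjusted p = 0.048), a call kept in 4 of 14 alternatives and lost without any sample but pentamidine replicate 3 (0.071 to 0.40). MRI1, an enzyme of methionine salvage picked out after its values were seen, fell by 0.49 in PC3 (adjusted p = 1.0e-04) and rose by 0.18 in DU145 (adjusted p = 0.024), with a difference of -0.67 (adjusted p = 2.7e-05). The difference held in all 20 alternatives, while the rise in DU145 held in 9 of 15 and was lost without vehicle replicate 2 (0.20), pentamidine replicate 2 (0.12) or pentamidine replicate 3 (0.0501).

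**Figure D5:**
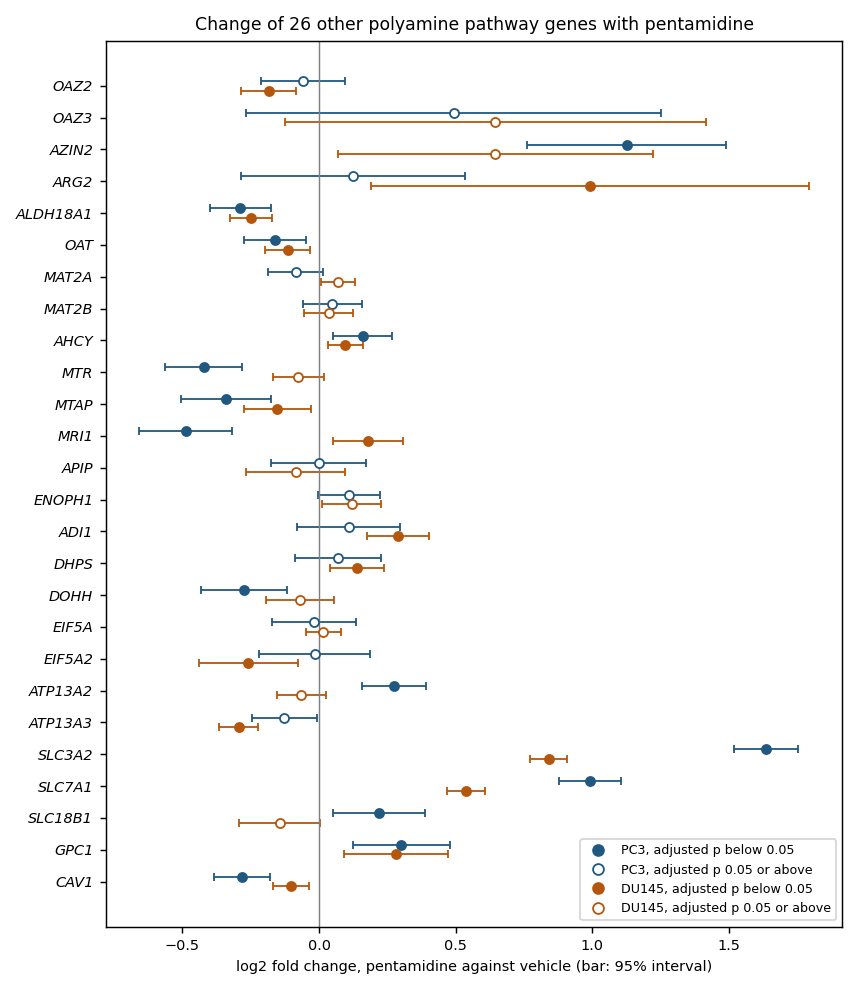
Log2 fold change upon pentamidine treatment of the 26 other pathway genes that were tested in both lines, in PC3 (blue) and DU145 (orange), with 95% intervals and filled points for adjusted p below 0.05. SLC3A2 (1.64 and 0.84) and SLC7A1 (0.99 and 0.54) stand to the right in both lines, and most others lie within 0.5 of 0.

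Across the 12 samples, the genes whose log2 CPM followed ODC1 most closely were POLR3C (Pearson r = 0.96), CCDC184 (0.95), SEPHS1 (0.95), AREG (0.94) and MOAP1 (0.94), out of 13124 genes tested in both lines. For SAT1 they were ETF1 (0.99), ACVR1 (0.99), UTP14A (0.99), DPYSL2 (0.98) and TNFAIP1 (0.98). The points share 4 groups, so these values describe which genes have the same pattern over line and treatment, and nothing of shared function or control.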

How the data were processed

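RNA was selected with Oligo(dT) beads and sequenced as paired reads, and per the submitters' processing notes the tools were HISAT2 (2.1.0) and DESeq (1.18.1) with genome build GRCh38. The counting program and any strand setting are not given in the sources used here, so sense and antisense reads cannot be told apart. The authors deposited whole-number counts per gene without normalization. A deposited table labelled FPKM summed to the same total in every sample and was not used, nor were the authors' tables of fold changes and p-values for each line.

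The table held 33639 lines, of which 44 were broken annotation lines with no gene and were left out. The 33595 entries left gave 32077 genes after entries of the same name and counts were merged, and 31961 of these were found in GENCODE 29. Replicates differed by more than sampling noise (chi-square per gene 1.72 to 7.3). Each was counted as 1 sample, although this spread does not show that replicates came from separate cultures. The pairs of PC3 vehicle samples lay highest, at 3.64 to 7.3, and the pairs of the other groups at 3.13 or below. Counts were tested with edgeR (4.0.16, R 4.3.3) by its quasi-likelihood test after TMM scaling (factors 0.973 to 1.02) and filterByExpr with a minimum count of 10. Each line was fitted on its own, and the interaction and the line difference were fitted on all 12 samples. P-values were two-sided and adjusted by Benjamini-Hochberg over all genes tested, with calls at adjusted p below 0.05. The limit of an absolute log2 fold change above 1, as in the study's methods, was a second count. CPM are TMM-normalized, and per-kilobase values use the merged exon length in GENCODE 29. The step was also run on simulated counts, drawn independently for each sample. Such a run cannot show whether the samples of these data are independent.

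Members and lists were chosen with earlier results of these data known. All 10 members are named. Of the other pathway genes, those called in both lines with an absolute log2 fold change above 0.5 in at least 1 line are named (up to 12), besides OAZ2, AZIN2, EIF5A, DHPS, ATP13A3, MTAP, MAT2A and ARG2 whatever their values, and for ODC1 and SAT1 the 5 genes of highest Pearson correlation of log2 CPM (prior count 2). Alternatives were RLE and library-size scaling, TMM without mitochondria-encoded genes, DESeq2 (1.42.0), limma (3.58.1) on log2(CPM + 1), other filters, a replicate block, all samples in 1 fit and leaving out each sample. A few genes of the lists are not reported here.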

Additional observations from a re-analysis of the deposited data

Results flagged for a closer look

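The effect of pentamidine (log2, PC3 minus DU145) differed between the lines for 5 members by the interaction test in edgeR's quasi-likelihood fit. SAT1 had a difference of 1.24 (adjusted p = 2.1e-12), with 3 of 3 treated samples above the vehicle samples in PC3 and 3 of 3 below them in DU145. SMOX had a difference of 1.17 (adjusted p = 5.7e-12), with 3 of 3 treated samples higher in both lines. AZIN1 (0.18, adjusted p = 0.033), ODC1 (0.17, adjusted p = 0.0495) and SRM (-0.20, adjusted p = 0.032) had smaller differences, which were lost in 8, 11 and 11 of 20 alternatives. Groups of 3 samples were not searched for single samples standing apart.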

How the results depend on the processing

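SAT1, SAT2, SMOX and AMD1 kept their direction and side of the threshold in both lines under all 15 alternatives, with log2 fold changes in PC3 of 0.78 to 0.84, 0.64 to 0.80, 1.47 to 1.59 and -0.48 to -0.36. With an absolute log2 fold change above 1 required as well, the members called were 1 in PC3, 0 in DU145 (7 by adjusted p alone), 2 for the difference between the lines and 1 between the vehicle-treated lines, and other pathway genes 2 in PC3 and 1 in DU145. Other pathway genes called in DU145 were 8 with DESeq2, 10 with all 12 samples in 1 fit and 10 to 13 on leaving out each sample.

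On leaving out each sample, 2 to 4 members were called for the difference between the lines. Deviations of same-numbered vehicle and pentamidine samples correlated at -0.16 to 0.045 in PC3 and -0.014 to 0.0025 in DU145. Those of differently numbered samples correlated at -0.15 to 0.17 in PC3 and -0.024 to 0.022 in DU145. With 3 samples per group these values cannot show whether samples were paired, under these numbers or others. With the replicate block 2 members were called for the difference between the lines in place of 5. No other count of members or pathway genes that was followed there left its range of 1.5 times.

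Signs turned only for differences that had not passed, and each turned on leaving out single samples. The ranges were -0.060 to 0.11 for OAZ1, -0.12 to 0.072 for EIF5A and -0.075 to 0.27 for ARG2 in PC3, and -0.022 to 0.079 for OAZ1, -0.029 to 0.052 for EIF5A and -0.0013 to 0.050 for ODC1 in DU145. For the difference between the lines OAZ1 ranged from -0.078 to 0.085, and with library size alone it was -0.065. The cause was not tested. PAOX had 29 to 64 counts per library, and ARG2 had 8 to 27 in DU145.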
